A study of Sus scrofa with 20 samples.

Results

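MPDU1 and WSCD1 are protein-coding genes of pig chromosome 12, in the region of a quantitative trait locus (QTL) linked to how pigs cope. They were described here in the hippocampus of 20 adult German Landrace pigs, 1 Affymetrix Snowball array per animal. All probe sets that the platform annotation labels with either symbol were taken, which gave 8 of the 47722 probe sets that were no controls, 2 for MPDU1 and 6 for WSCD1. The pigs were 10 animals with a high-reactive (HR) and 10 with a low-reactive (LR) coping pattern, and no animal carried a treatment. Per the methods of the study, animals were picked both for extreme struggling behavior in the backtest as piglets and for their haplotypes at the QTL, so behavior and haplotype cannot be told apart in these groups. The labels and methods name neither the sex and litter of the animals nor the batches of the arrays, so the p-values below measure only the spread between these animals. The values are log2 probe set values made with the robust multichip average (RMA), so a difference of 1 is a doubling, and no value can be read as a level relative to another gene.

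MPDU1 codes for a membrane protein of the endoplasmic reticulum with PQ-loop repeats. It is needed for the use of dolichol phosphate mannose and dolichol phosphate glucose, the lipid-bound sugar donors of N-glycan precursor assembly, of GPI anchor synthesis and of O- and C-mannosylation, and its loss in people causes a congenital disorder of glycosylation with neurological signs. WSCD1 codes for a membrane protein with a WSC domain and a sulfotransferase domain, and its role in the hippocampus is not well defined. Protein glycosylation is needed in brain tissue for the transport of receptors, channels and adhesion molecules to the cell surface.

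In the Sscrofa11.1 annotation WSCD1 spans chr12:51152568-51198302 and MPDU1 spans chr12:52878924-52882854. The genes lie 1.681 Mb apart, with 72 protein-coding genes between them, so they are not neighbors. WSCD1 overlaps no other protein-coding gene of this annotation, whereas the end of MPDU1 shares 15 bases with SOX15, a transcription factor gene with 1 probe set of its own.

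Any 2 arrays correlated at 0.844 to 0.988 (median 0.969), and the first principal component of the arrays held 48.0% of the variance. The arrays at the ends of this component were HR replicate 5 with a score of 65.3 and LR replicate 1 with a score of -53.0. Control probe sets rich in G and C bases, which match no pig transcript, averaged 7.31 ± 0.20 log2 in HR, against 7.50 ± 0.20 log2 for LR (SD, 10 arrays each). The number in the sample title, whose meaning is not stated, averaged 2863 ± 109 in HR and 2601 ± 225 in LR. In each label 1 array had a number far below the others, HR replicate 1 with a gap of 0.530 of the range of its label and LR replicate 1 with a gap of 0.703. All HR arrays except HR replicate 1 had a higher title number than every LR array, so this number and the label are nearly confounded. Of 65 marker genes for 11 cell classes, 53 lay above the filter level of 5.53, including SYT1 of neurons at 12.3, MBP of oligodendrocytes at 13.5 and all 8 listed genes of hippocampal granule and pyramidal neurons.

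MPDU1 was lower in HR than in LR hippocampus in its bright probe set and differed by only -0.09 log2 in its dim one. The bright probe set, SNOWBALL_014733_st, had a lowest value of 7.38, a median of 7.84 and a highest value of 8.20 in HR, against 8.02, 8.45 and 8.96 in LR. The LR median was above all 10 HR arrays, 8 HR arrays lay below every LR array, and 7 LR arrays lay above every HR array. The overlap thus came from 2 HR arrays, replicate 1 with 8.20 and replicate 10 with 8.11, and 3 LR arrays, replicates 7, 9 and 10 with 8.16, 8.06 and 8.02. HR averaged 7.83 ± 0.24 log2, against 8.43 ± 0.30 log2 for LR (SD over the 10 arrays of each label). This gave a difference of -0.60 ± 0.12 log2 (SE), an HR level of 0.659 of that in LR. The genes were chosen with this difference known, so it stands as a description with no test, and the same holds for WSCD1. In bulk tissue fewer cells of a type and less RNA per cell cannot be told apart.

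The dim probe set of MPDU1, SNOWBALL_034110_st, ranged between 4.85 and 5.73 in HR, with a median of 5.15, and between 4.91 and 5.69 in LR, with a median of 5.22. The groups overlapped almost fully, with 1 HR array below every LR array and no LR array above every HR array. Its mean over all arrays of 5.21 was below the filter level, and its difference was -0.09 ± 0.10 log2. Across the arrays of 1 label the 2 probe sets of MPDU1 hardly moved together, with r = -0.07 in HR and r = 0.28 in LR (n = 10 each). What is said below of MPDU1 therefore rests on 1 probe set.

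All 6 probe sets of WSCD1 had a lower mean in HR than in LR. The brightest, SNOWBALL_015074_st, had 7.78, 8.13 and 8.41 as its lowest, median and highest value in HR, against 8.16, 8.42 and 8.74 in LR. The LR median was above all 10 HR arrays, and 6 of these lay below every LR array. HR averaged 8.09 ± 0.19 log2, against 8.49 ± 0.22 log2 for LR (SD over the 10 arrays of each label). This gave a difference of -0.40 ± 0.09 log2 (SE), an HR level of 0.760 of that in LR.

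The other 5 WSCD1 probe sets had smaller differences that ran in the same direction. SNOWBALL_030965_s_st had a range of 6.44 to 7.12 in HR and of 6.85 to 7.51 in LR, a difference of -0.38 ± 0.10 log2, and all 10 HR arrays were under the median of LR. SNOWBALL_030285_st, with a mean of 5.11 below the filter level, differed by -0.31 ± 0.09, and SNOWBALL_034431_st differed by -0.28 ± 0.09. In both, 9 HR arrays were under the median of LR. The differences were smallest in SNOWBALL_041127_st with -0.19 ± 0.08, where 10 HR arrays were under the median of LR, and in SNOWBALL_014938_s_st with -0.16 ± 0.08, where 9 did. The mean of the 5 probe sets above the filter level differed by -0.28. Of all 10313 named genes, each taken by its brightest probe set above the filter level, 91 or 0.882% had all 10 HR arrays below the LR median, and nothing is read from this for genes that were chosen by the contrast.

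**Figure D1:**
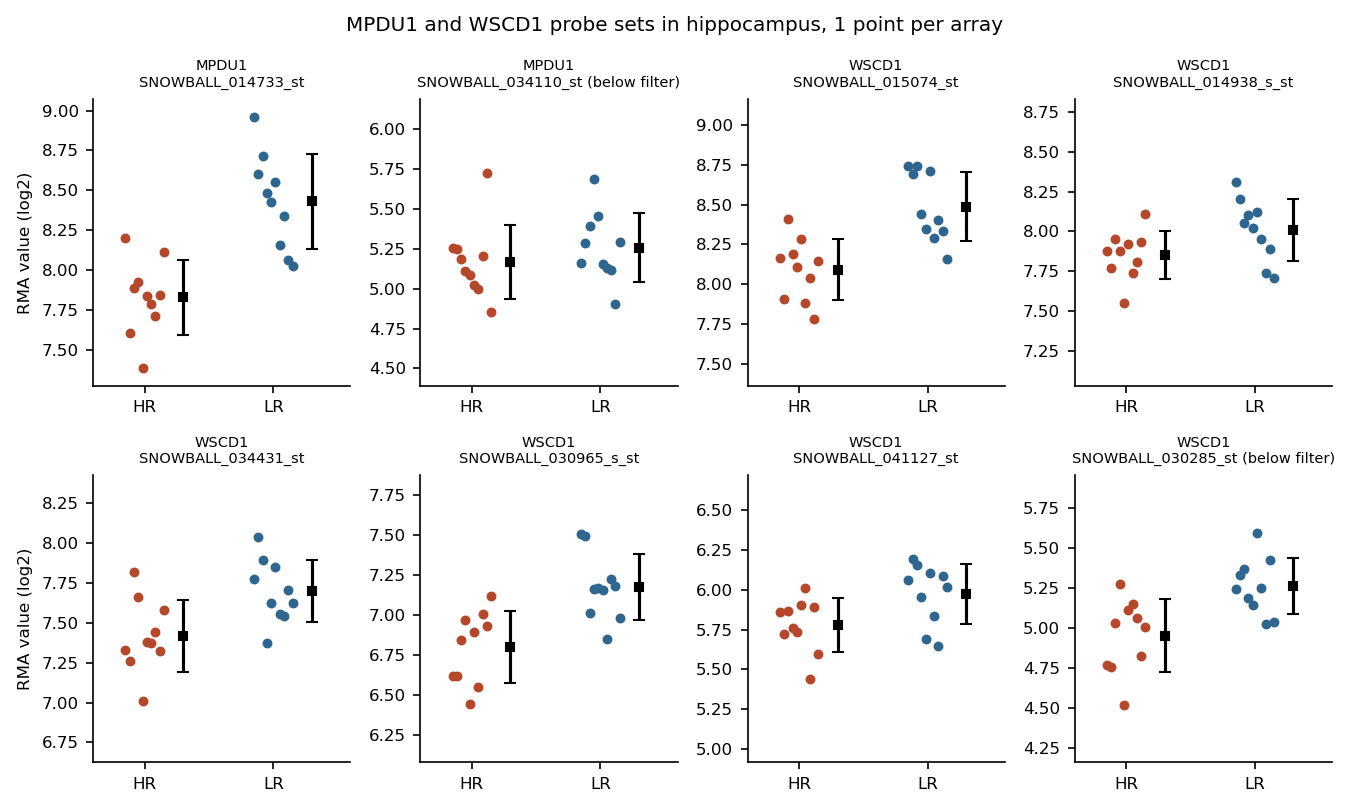
RMA values (log2) of the 2 MPDU1 and 6 WSCD1 probe sets, with 1 point per array, HR left of LR, and squares with bars for the mean ± SD of 10 arrays. The HR points lie mostly below the LR points except in the dim MPDU1 probe set, where the difference of means was -0.09 log2. Each panel has its own axis range.

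The WSCD1 probe sets differed in how far they followed each other within a label. Over the 10 pairs of its 5 probe sets above the filter level, r ranged between -0.45 and 0.81 in HR, with a median of 0.25, and between 0.25 and 0.79 in LR, with a median of 0.56 (n = 10 arrays each). The lowest value in HR was that of SNOWBALL_041127_st with SNOWBALL_030965_s_st, and the highest was that of SNOWBALL_030965_s_st with SNOWBALL_014938_s_st. Whether these r differed between HR and LR was not tested.

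The relation of both genes to each other was then examined within each label, where the difference between the labels does not enter. MPDU1 and WSCD1 varied together across LR arrays, with r = 0.898 (permutation p = 0.00049, adjusted p = 0.00532) and rho = 0.964 (permutation p = 0.0001, adjusted p = 0.00193). Without the 2 LR arrays farthest from the median of MPDU1, r was 0.860. Across HR arrays r was 0.284 (permutation p = 0.431, adjusted p = 0.499) and rho was 0.455 (permutation p = 0.194, adjusted p = 0.360), and r was 0.424 without the 2 farthest arrays. Tests were two-sided with adjustment over 58 relations, and whether the relation differed between HR and LR was not tested.

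The HR value depended on the probe set of WSCD1. With the mean of all WSCD1 probe sets above the filter level, r was 0.691 in HR (permutation p = 0.0255) and 0.787 in LR (permutation p = 0.00739). The r of the bright MPDU1 probe set with the single WSCD1 probe sets ranged between 0.13 and 0.81 in HR, with a median of 0.48, and between 0.31 and 0.90 in LR, with a median of 0.62. The highest in HR was with SNOWBALL_014938_s_st, and the lowest was with SNOWBALL_041127_st.

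**Figure D2:**
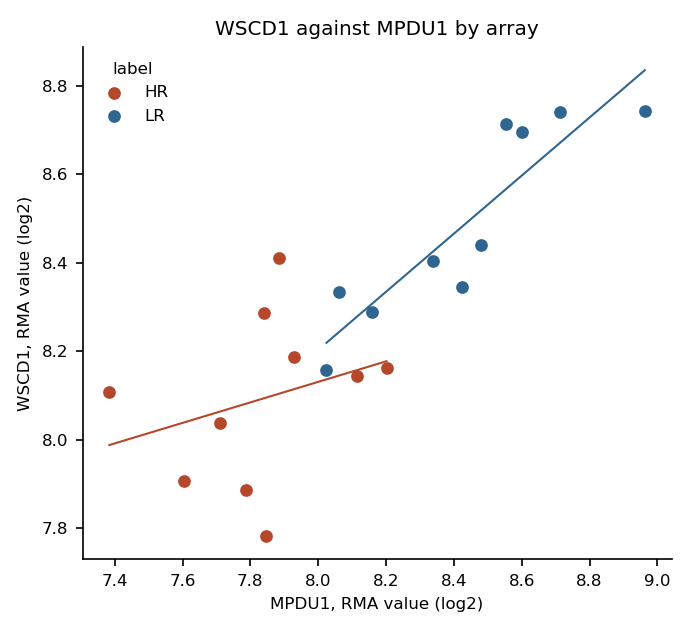
Brightest probe set of WSCD1 (log2) against that of MPDU1 (log2), with 1 point per array and a least-squares line for each label. The LR points follow their line (r = 0.898), whereas the HR points scatter around theirs (r = 0.284).

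Both genes were also set against measures of the whole array. MPDU1 followed the level of the GC-rich control probe sets in HR with r = 0.900 (permutation p = 0.00083, adjusted p = 0.00688, rho = 0.927) and in LR with r = 0.973 (permutation p = 3e-05, adjusted p = 0.00174, rho = 0.939). Without the 2 farthest arrays these r were 0.744 and 0.954. Of 10313 genes MPDU1 had the 4th highest correlation with this level, with r = 0.934 over 20 arrays after the mean of its label was subtracted from each value, which is called the label-centred r below. The median over all genes was 0.319. With the first principal component MPDU1 had r = -0.907 in HR (adjusted permutation p = 0.0029, rho = -0.915) and r = -0.937 in LR (adjusted permutation p = 0.00174, rho = -0.964).

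WSCD1 passed the threshold with the same measures in LR, with r = 0.846 for the GC-rich controls (adjusted permutation p = 0.0121, rho = 0.915) and r = -0.892 for the first component (adjusted permutation p = 0.00767, rho = -0.879). In HR it did not, with r of 0.397 (adjusted permutation p = 0.412, rho = 0.600) and -0.374 (adjusted permutation p = 0.425, rho = -0.406). WSCD1 ranked 2659th of 10313 genes by its label-centred r with the GC-rich controls, at 0.634. With the first component taken out of both genes, r between MPDU1 and WSCD1 was -0.14 in HR (permutation p = 0.6996) and 0.393 in LR (permutation p = 0.255). With the GC-rich level taken out it was -0.18 in HR (permutation p = 0.612) and 0.609 in LR (permutation p = 0.0662). With the title number taken out it was 0.225 in HR (permutation p = 0.536) and 0.873 in LR (permutation p = 0.00114). The p-values with a measure taken out were not adjusted.

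Across LR arrays MPDU1 was lower at higher title numbers, with r = -0.825 (permutation p = 0.00117, adjusted p = 0.00767), rho = -0.939 (adjusted permutation p = 0.003) and r = -0.722 without the 2 farthest arrays. In HR r was -0.321 (permutation p = 0.349, adjusted p = 0.460) and rho was -0.05 (adjusted permutation p = 0.908). For WSCD1 r was -0.619 in LR (permutation p = 0.0199, adjusted p = 0.0723), where rho of -0.830 passed (adjusted permutation p = 0.0192), and -0.240 in HR (adjusted permutation p = 0.559). Both gene differences were smaller with either measure as a covariate, and the part of these measures in the differences was not tested.

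Adjusted for the title number, the HR minus LR difference was -0.34 ± 0.11 for MPDU1 and -0.25 ± 0.11 for WSCD1 (SE of the limma fit, as below). Only HR replicate 1 had a title number within the range of LR, so this adjustment can hardly separate the number from the label. Adjusted for the GC-rich level the difference was -0.36 ± 0.06 for MPDU1 and -0.27 ± 0.08 for WSCD1. Adjusted for the title number and without LR replicate 1, the array with the lowest number, the differences were -0.30 ± 0.13 for MPDU1 and -0.20 ± 0.12 for WSCD1.

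**Figure D3:**
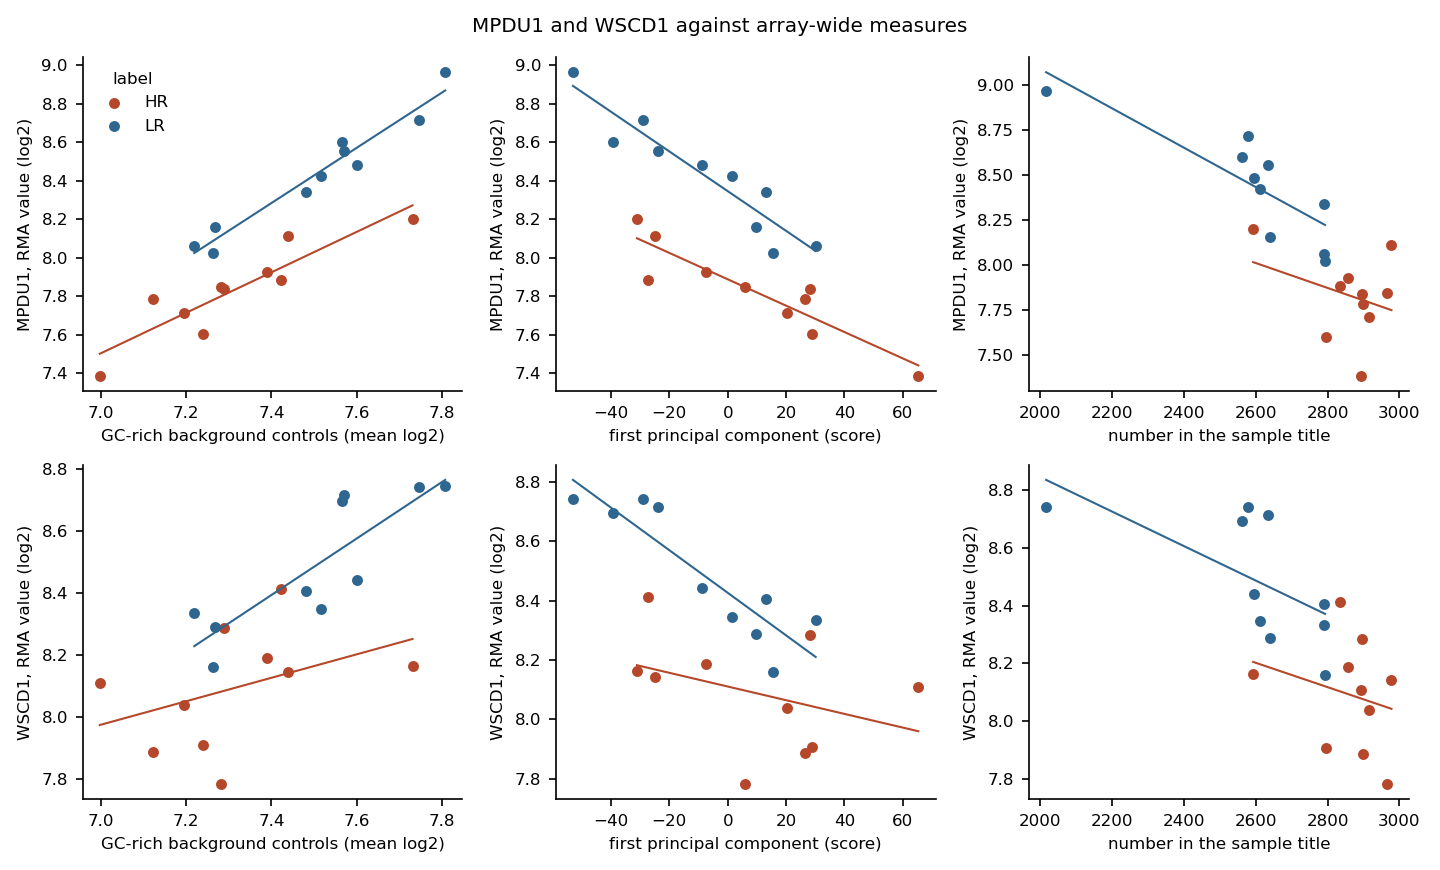
MPDU1 (top row, log2) and WSCD1 (bottom row, log2) against the mean of the GC-rich background controls, the score on the first principal component and the number in the sample title, with 1 point per array and a least-squares line for each label. In the 3 MPDU1 panels the HR line runs below the LR line over the range that both labels share. For the title number HR replicate 1 is the only HR array in that range. For the GC-rich controls r was 0.900 in HR and 0.973 in LR, and for the first component -0.907 in HR and -0.937 in LR.

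Of the cell class marker means, those of neurons and astrocytes ran opposite to MPDU1. Neuron markers, 6 of 7 listed genes measured, had r = -0.887 with MPDU1 in HR (adjusted permutation p = 0.00532, rho = -0.879) and r = -0.933 in LR (adjusted permutation p = 0.0029, rho = -0.964). Astrocyte markers, with 6 of 6 measured, had r = -0.836 in HR (adjusted permutation p = 0.0141, rho = -0.891) and r = -0.847 in LR (adjusted permutation p = 0.0120, rho = -0.867). The mean level of the neuron markers was higher in HR by 0.16, with 10.72 ± 0.17 (range 10.43 to 10.97) in HR and 10.56 ± 0.17 (range 10.29 to 10.87) in LR. At an unadjusted limma p under 0.05, 2 of the 6 genes were higher and 0 lower, beside 7.1% and 3.35% of all named genes. The brightest, SYT1, differed by 0.03 (unadjusted limma p = 0.740). The marker means of granule and pyramidal neurons and of interneurons differed by -0.01 and -0.06. The mean level of the astrocyte markers was 11.17 ± 0.15 (range 10.9 to 11.4) in HR and 11.12 ± 0.12 (range 10.9 to 11.3) in LR. By the same rule 1 of 6 genes was higher and 0 lower.

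WSCD1 had r = -0.849 with the neuron markers in LR (adjusted permutation p = 0.00911, rho = -0.879) and r = -0.400 in HR (adjusted permutation p = 0.412, rho = -0.370). With the neuron and astrocyte means as covariates the HR minus LR difference was -0.36 ± 0.07 for MPDU1 and -0.20 ± 0.09 for WSCD1 (SE). The part of cell composition was not tested. The means of the other 9 cell classes had no adjusted permutation p for r under 0.05 with either gene in either label.

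The question which glycosylation genes accompany both members was addressed with 9 lists of 181 genes, of which 157 were on the array and 145 lay above the filter level. In HR against LR, limma gave 0 of 23861 probe sets (0.0%) past the adjusted threshold and 2750 (11.5%) at an unadjusted p under 0.05, and the exact Wilcoxon test gave 0 and 2294. At an unadjusted p under 0.05, 9 of the 145 genes were higher in HR, beside a background of 7.1% of all named genes, and 3 were lower, beside 3.35%. These shares are close to the background, and the median difference was -0.03 over the list genes and -0.02 over all genes. The lowest difference of a list gene was -0.22.

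The dolichol phosphate and mannose donor list holds the enzymes that make the substrates on which MPDU1 acts. Of its 13 measured genes 11 had a lower and 2 a higher mean in HR, with a median difference of -0.08. Over all 10311 genes 5731 were lower and 4580 higher, with a median of -0.02. The median label-centred r of the 13 list genes with MPDU1 was 0.64, and the part of the array-wide component in their differences was not tested. The 2 list genes with a higher mean were NUS1 and DPM1. NUS1, a subunit of the enzyme that makes the dolichol chain, had 8.38 ± 0.27 in HR and 8.10 ± 0.25 in LR (difference 0.28 ± 0.11, unadjusted p = 0.0219, adjusted p = 0.372). DHDDS, the partner of NUS1, had a difference of -0.14 ± 0.09 (unadjusted p = 0.111).

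The 3 subunits of dolichol phosphate mannose synthase differed in the direction of their mean difference, none at an unadjusted p under 0.05. DPM1, the catalytic subunit, had 8.06 ± 0.54 in HR and 7.66 ± 0.52 in LR (difference 0.39 ± 0.22, unadjusted p = 0.0827), and its 6 probe sets had differences between -0.13 and 0.59. DPM2 and DPM3, which hold the enzyme in the membrane, had differences of -0.09 ± 0.09 and -0.12 ± 0.08 (unadjusted p = 0.317 and 0.122). The label-centred r with MPDU1 was -0.84 for DPM1, 0.68 for DPM2 and 0.86 for DPM3.

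At an unadjusted p under 0.05, 2 of 12 genes of lipid-linked oligosaccharide assembly and 1 of 10 oligosaccharyltransferase genes were higher in HR. No gene of either list was lower at this threshold. Nothing is read from the shares of lists this small. Over all named genes 7.1% were higher and 3.35% lower in HR at this threshold. Among 12 genes of lipid-linked oligosaccharide assembly the glucosyltransferase genes ALG10 and ALG6 passed it. ALG10 had 8.05 ± 0.34 in HR and 7.53 ± 0.40 in LR (difference 0.51 ± 0.16, unadjusted p = 0.0032). For ALG6 the difference was 0.43 ± 0.20 (unadjusted p = 0.0435). The second probe set of ALG10 above the filter level differed by 0.14. MAGT1 was the 1 of 10 oligosaccharyltransferase genes that passed, with a difference of 0.38 ± 0.15 (unadjusted p = 0.0179).

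Of 11 measured genes of the O- and C-mannosylation list, 8 had a higher and 3 a lower mean in HR, with a median of 0.13. Over all 10311 genes 4580 were higher and 5731 lower, with a median of -0.02. Not all genes of this list code for enzymes that use dolichol phosphate mannose, and B3GALNT2 and B4GAT1, which do not, were among those with a higher mean. The median label-centred r of the 11 list genes with MPDU1 was -0.62, and the part of the array-wide component in their differences was not tested. TMTC4, an O-mannosyltransferase gene, differed by 0.28 ± 0.11 (unadjusted p = 0.0172) and DPY19L1, a C-mannosyltransferase gene, by 0.38 ± 0.16 (unadjusted p = 0.0246). DPY19L1 was dim, with 5.96 in HR and 5.57 in LR. Of 24 GPI anchor genes PIGM, the first GPI mannosyltransferase, differed by 0.19 ± 0.09 (unadjusted p = 0.0452) and PIGY by -0.19 ± 0.09 (unadjusted p = 0.0433).

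The lists closer to WSCD1 and that of N-glycan trimming were read at the same threshold, beside 7.1% of all named genes higher and 3.35% lower. Higher and lower in HR were 3.33% and 0.0% of the sulfotransferase list and 4.35% and 4.35% of the sialic acid list. For the N-glycan trimming list the shares were 0.0% and 6.25%. Nothing is read from these shares. Of 30 sulfotransferase and sulfate donor genes only HS2ST1, which sulfates heparan sulfate, had an unadjusted p under 0.05, with 8.69 ± 0.14 in HR and 8.49 ± 0.12 in LR (difference 0.20 ± 0.07, unadjusted p = 0.0060). Of 23 genes of sialic acid synthesis, transfer and removal NANP, a phosphatase of sialic acid synthesis, differed by 0.40 ± 0.18 (unadjusted p = 0.0385) and the sialyltransferase gene ST6GALNAC4 by -0.22 ± 0.10 (unadjusted p = 0.0294). MAN1B1, a mannosidase of the endoplasmic reticulum, was the 1 of 16 N-glycan trimming and branching genes, with -0.22 ± 0.10 (unadjusted p = 0.0441). WSCD2, the paralog of WSCD1, had 8.81 ± 0.18 in HR and 8.87 ± 0.17 in LR (difference -0.05 ± 0.08, unadjusted p = 0.505), and the 7 measured WSC domain and PQ-loop relatives lay between -0.10 and 0.02.

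**Figure D4:**
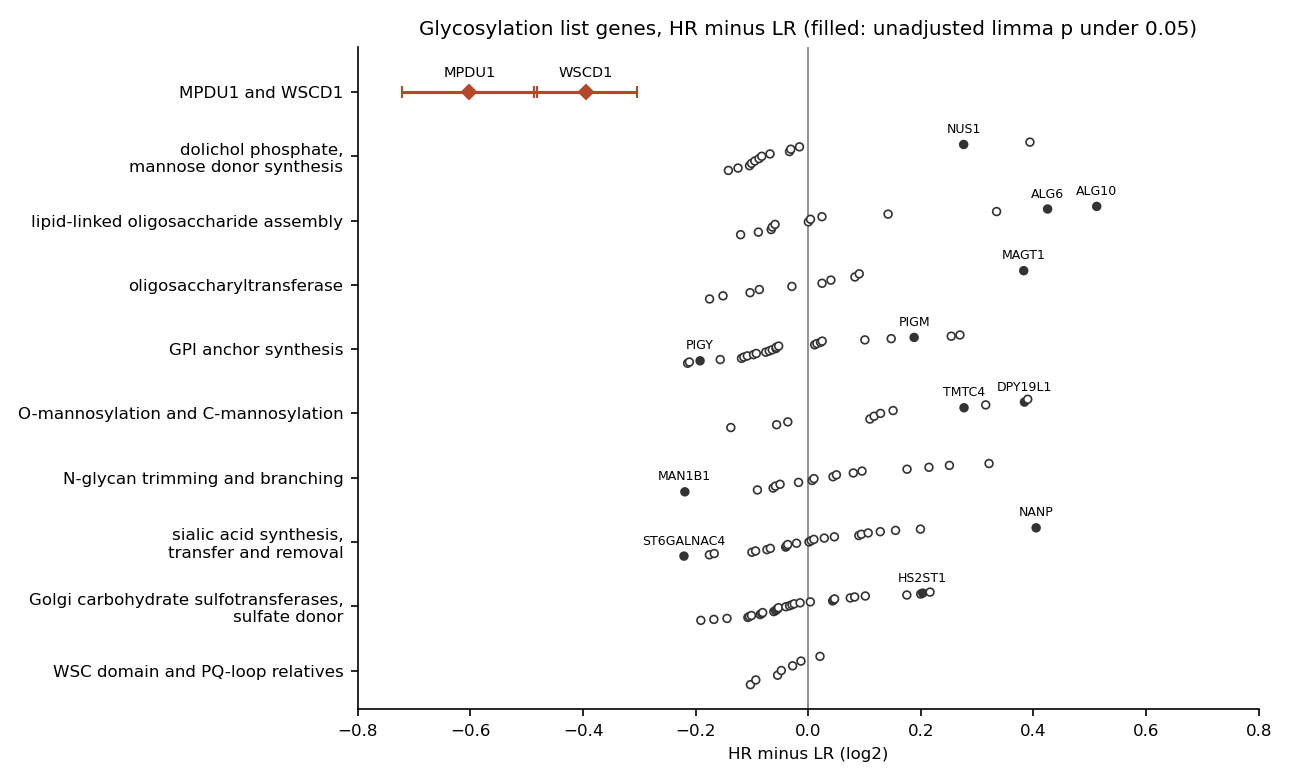
HR minus LR difference (log2) of MPDU1 and WSCD1 (diamonds, bars ± SE) and of the measured genes of 9 lists (circles, 1 per gene), with filled and named circles for an unadjusted limma p under 0.05. The list genes lie between -0.22 and 0.51, so that none is as far below 0 as MPDU1 with -0.60 or WSCD1 with -0.40, which were chosen by this difference. In the other direction some list genes, such as ALG10 with 0.51 and ALG6 with 0.43, differ by more than WSCD1 in size.

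Across the arrays of 1 label many glycosylation genes followed MPDU1, but so did many genes of all kinds. At an adjusted permutation p under 0.05 for r over 41248 relations, 69 of 145 list genes were called with MPDU1 in HR (47.6%), beside 40.1% of all genes. Of the 145 list genes, 48 were called with positive r, beside 24.9% of all genes (2566 of 10312). With negative r it was 21 of 145, beside 15.2% (1567 of 10312). In LR 47 of 145 list genes were called (32.4%), beside 35.5% of all genes. With positive r it was 15 of 145, beside 16.3% of all genes (1685 of 10312). With negative r it was 32 of 145, beside 19.1% (1972 of 10312). With WSCD1 the calls were 1 list gene in HR (0.690%), of positive r, beside 0.514% of all genes (0.31% positive, 0.204% negative). In LR there were 36 of 145 (24.8%), beside 26.1% of all genes. With positive r it was 8 of 145, beside 10.6% of all genes (1098 of 10312). With negative r it was 28 of 145, beside 15.4% (1590 of 10312). These shares were not tested against those of all genes.

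The single call with WSCD1 in HR was HK1, the hexokinase that phosphorylates glucose, with r = 0.778 (permutation p = 0.00825, adjusted p = 0.0388) and rho = 0.818 (adjusted permutation p = 0.0347), and r = 0.663 without the 2 farthest arrays. In LR r was 0.469 (adjusted permutation p = 0.290). By rho the calls with MPDU1 were 59 and 47 of 145 list genes in HR and in LR, beside 3730 and 3268 of 10312 genes. With WSCD1 they were 1 and 33 list genes, beside 66 and 2519 of 10312 genes.

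The list genes most like MPDU1 by label-centred r over 20 arrays were RPN1, a subunit of oligosaccharyltransferase (0.877), DPM3 (0.862) and GPAA1 of the GPI transamidase (0.846). The least like it were NGLY1, which removes N-glycans from misfolded proteins (-0.932), MAGT1 (-0.899) and PIGK, the catalytic subunit of the GPI transamidase (-0.886). Both ends thus held subunits of the same complexes, RPN1 and MAGT1 in 1 case and GPAA1 and PIGK in the other. For WSCD1 the most like were the GPI mannosyltransferase gene PIGV (0.754), the heparan sulfate gene HS6ST1 (0.720) and GAL3ST4 (0.673), and the least like were DPY19L1 (-0.819), MAGT1 (-0.701) and DPY19L3 (-0.692). These values share the 20 arrays and the first component described above.

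The median label-centred r of the 145 list genes was 0.432 with MPDU1, against 0.348 over all genes, and 0.251 with WSCD1, against 0.195 over all genes. It was highest for the dolichol list, with 0.640 for MPDU1 and 0.441 for WSCD1, and lowest for O- and C-mannosylation, with -0.621 for MPDU1 and -0.552 for WSCD1. With the first component taken out, the medians of the list genes were -0.0174 with MPDU1 and -0.0648 with WSCD1, beside -0.0044 and -0.0371 over all genes.

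**Figure D5:**
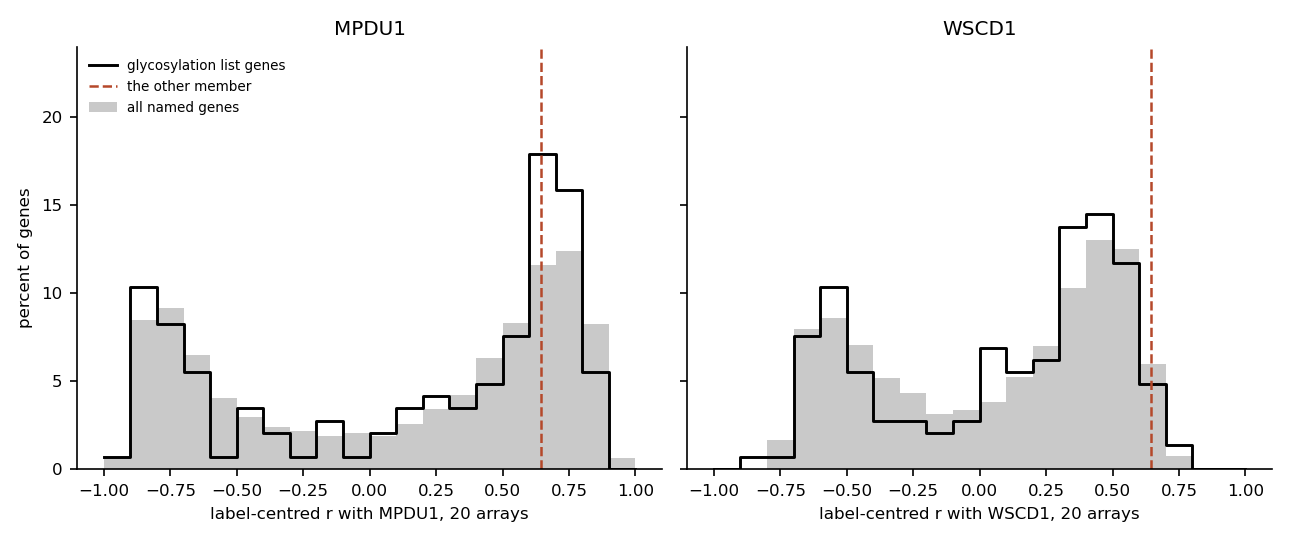
Share of genes (percent, bins of 0.1) by label-centred r with MPDU1 (left) and WSCD1 (right) over 20 arrays, for all named genes (grey) and the 145 glycosylation list genes (black line), with the other member as a dashed line at 0.644. Both distributions have a peak at negative and a peak at positive r, and the list genes follow the outline of all genes.

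Among all named genes WSCD1 was not one of the closest to MPDU1. Its label-centred r was 0.644, and 2896 of 10312 genes had a higher one with MPDU1, whereas MPDU1 ranked 305th of 10312 for WSCD1, above the 95th percentile of 0.618. With the first component taken out, r was 0.235 and the ranks were 2465 and 1582. The genes most like MPDU1 were BCAP31, a cargo receptor of the endoplasmic reticulum (0.960), GPX4, which reduces lipid peroxides (0.947), NECAB2 (0.945), TMEM203 (0.942) and UBL4A (0.941). Those most opposed were TRMT6 (-0.949), ZDHHC20 (-0.948), AP4S1 (-0.945), SMARCC1 (-0.938) and RTN2 (-0.934).

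The genes most like WSCD1 were MBNL3, a splicing regulator (0.849), TSPAN14 (0.789), the phosphofructokinase gene PFKP (0.784) and the elongation factor gene EEF2 (0.781). A probe set labelled MIR30C was second in this order, but its label was matched to no position and its value is not given. Those most opposed were DPY19L1, which is also a list gene (-0.819), MUT (-0.814), SNX25 (-0.798), NSL1 (-0.789) and TOR1AIP1 (-0.788). None of those with an assigned chromosome lies on chromosome 12.

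The neighbors of both genes on chromosome 12 were examined because the animals were picked by haplotype in this region. Both members were chosen by their difference and the neighbors were not, so nothing is read from smaller differences of the neighbors. On either side of MPDU1 the differences were smaller than its own, with -0.07 ± 0.06 for EIF4A1 (unadjusted p = 0.198), -0.18 ± 0.10 for SENP3 (unadjusted p = 0.0719), -0.03 ± 0.09 for SOX15 (unadjusted p = 0.713) and -0.10 ± 0.08 for FXR2 (unadjusted p = 0.203). SOX15, which overlaps MPDU1, had 5.78 ± 0.20 in HR and 5.81 ± 0.19 in LR. The other neighbors of MPDU1 lay at most 11340 bases away. The label-centred r of these neighbors with MPDU1 was 0.62 to 0.85.

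Around WSCD1 the nearest measured genes lay much farther away, at 254251 (PITPNM3) to 359380 bases (KIAA0753). They had a higher mean in HR, opposite to WSCD1 itself. The differences were 0.17 ± 0.06 for KIAA0753 (unadjusted p = 0.0103, adjusted p = 0.339), 0.05 ± 0.09 for PITPNM3 (unadjusted p = 0.575), 0.14 ± 0.13 for MIS12 (unadjusted p = 0.262) and 0.15 ± 0.10 for DERL2 (unadjusted p = 0.128). The label-centred r with WSCD1 was 0.30 for PITPNM3, -0.02 for DERL2, -0.41 for KIAA0753 and -0.61 for MIS12.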

How the data were processed

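Hippocampus RNA of 20 pigs was measured, 1 array per animal. The submitters' processing notes name GCOS 1.1.1, and the authors ran RMA in Affymetrix Expression Console, so the deposited table is in log2 units. Because RMA gives every array the same distribution, a change of most transcripts at once stays hidden, and differences of dim probe sets are compressed. The table held 47845 probe sets with values between 0.687 and 14.4, and detection calls were not used here. Arrays carry no read depth, and their number limits the precision. 0 columns of samples were left unused.

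The 123 control probe sets were left out. Of the other 47722, the brighter 23861 were kept, with a 20-array mean over the median probe set mean of 5.53, the filter level. In the platform annotation 26426 probe sets carried 1 symbol, 0 carried several and 21296 carried none, and some symbols are old. Kept probe sets named 10313 genes, each taken by its brightest one, and 7383 had no name. Of the list genes 4 matched by an older symbol, and positions came from the Sscrofa11.1 annotation.

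Moderated two-sided tests of HR against LR came from lmFit and eBayes of limma 3.58.1 under R 4.3.3, and p-values were adjusted by Benjamini-Hochberg over the 23861 probe sets at 0.05. For a simulation the label differences of the 23861 probe sets were removed, the arrays were shuffled across labels, and 100 changes of each of 2 sizes were added together. Of these, 77 of 100 changes of 0.5 log2 and 98 of 100 changes of 1 log2 were recovered, with 9 false calls. The shuffle broke the tie between the label and the array-wide measures, so these shares do not give the power of the real contrast. Correlations within each label used 100000 permutations. Those with list genes were adjusted over all 41248 relations of the members with all named genes, in place of the list alone as first planned. The GC-rich level is the mean of 24 background control probe sets with at least 18 G or C bases. Replicate numbers follow the order of the samples and pair no arrays.

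The members and lists were chosen with earlier results of these data known. Named were all probe sets of both genes, per list up to 4 genes of the smallest p, the 3 most and least alike list genes, the 5 most and least alike of all genes, the 2 nearest measured protein-coding genes on either side, and the brightest marker of each class, of which those that add values are printed. DPM2 and HK1 fall outside this rule and were named after their values were seen. Alternatives were the title number, the GC-rich level or the first component as covariates, array weights, left-out arrays, no filter, probe set means and the exact Wilcoxon test. Covariates of both title number and GC-rich level or of marker means, residuals on the title number or GC-rich level, and likeness without the first component were added after seeing the data.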

Additional observations from a re-analysis of the deposited data

Results flagged for a closer look

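Among 44 groups of 10 arrays, for the 8 member probe sets and 14 array measures in each label, 3 held an array whose gap to its nearest neighbor was past the critical share of the range of its group for 10 values (Dixon). By chance about 1 in 20 groups holds such an array. In the dim probe set of MPDU1, SNOWBALL_034110_st, HR replicate 9 had 5.73, with the nearest HR array at 5.25 and a gap of 0.541 of the range. The same array had the lowest HR value of the brightest WSCD1 probe set, 7.78, and 7.85 in the bright MPDU1 probe set, close to the HR median of 7.84. The number in the sample title had such a gap in both labels, with HR replicate 1 and LR replicate 1 far below the other numbers and gaps of 0.530 and 0.703 of the range.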

How the results depend on the processing

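The HR minus LR difference kept its sign under all alternatives. For MPDU1 it lay between -0.61 ± 0.09 with array weights and -0.30 ± 0.13 for the title number without LR replicate 1 (SE). For WSCD1 it lay between -0.43 ± 0.09 with array weights and -0.20 ± 0.09 with the marker means as covariates. For WSCD1 it was -0.20 ± 0.12 for the title number without LR replicate 1. Leaving out each array in turn gave -0.65 to -0.54 for MPDU1 and -0.43 to -0.36 for WSCD1. The list genes higher in HR at an unadjusted p under 0.05 numbered 9 (7.1% of all genes), and 3 with the title number (1.56% of all genes), 5 with the GC-rich level (3.26%), 24 with array weights (13.9%), 4 without HR replicate 5 and LR replicate 1, the extremes of the first component (4.33%), and 6 (without LR replicate 3, 5.09%) to 18 (without LR replicate 10, 10.1%) with single arrays left out. Those lower in HR numbered 3 (3.35% of all genes), and 5 with the first component (6.87%), 9 with array weights (8.62%), 1 without these 2 extremes (2.13%), 1 by the exact Wilcoxon test (2.85%), and 0 (without HR replicate 5, 2.33%) to 8 (without HR replicate 1, 6.75%) with single arrays left out. In each of these settings the list count and the share of all genes moved the same way. The relation of MPDU1 with WSCD1 across HR arrays (r = 0.284) was -0.14 with the first component and -0.18 with the GC-rich level taken out, 0.225 with the title number taken out, 0.691 with probe set means, and 0.192 to 0.408 with single arrays left out. Across LR arrays (r = 0.898) it was 0.393 and 0.609 with the first component and the GC-rich level taken out, past no threshold, 0.873 with the title number taken out, and 0.865 to 0.920 with single arrays left out. Other alternatives kept each call, and the causes were not tested. No paired analysis was possible because the labels give no replicate numbers that both groups share. MPDU1 rests on 1 probe set, 10 arrays per label cannot separate correlated array measures, and signals near the filter level are compressed by RMA.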
